A study of Homo sapiens with 12 samples.

Results

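The origin licensing genes were MCM2, MCM3, MCM4, MCM5, MCM6, MCM7, MCM10, CDC6, CDT1 and GMNN. They were chosen by name for their role, with earlier results of these data known. They were 10 of the 34687 gene rows measured on Illumina HumanHT-12 arrays, where each gene's signal is the brightness of its probes. RNA came from HCT116, a human colon cancer line, and PANC1, a human pancreatic adenocarcinoma line. Cells of each line were given 0.05% DMSO (the solvent control), ICG-001 at 10 uM or C646 at 10 uM, and were harvested after 12 or 96 h. ICG-001 blocks the binding of the co-activator CBP to β-catenin, and C646 inhibits the histone acetyltransferase activity of CBP and p300. DMSO of the same line and time was the control for each drug, and no untreated cells were compared. Other comparisons set 96 h against 12 h within a treatment, or ICG-001 against C646. Per the study's methods, the 12 h cultures were denser when drug was added, while the 96 h cultures started sparser, were passaged and had medium and drug renewed daily, so that time cannot be told apart from density and passage.

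Before a cell copies its DNA, it marks the places where copying can begin. In G1 the origin recognition complex, CDC6 and CDT1 load MCM2 to MCM7, the ring-shaped replicative helicase, onto DNA as an inactive pair of rings, a step called licensing. Geminin, the product of GMNN, binds CDT1 and keeps origins from being licensed again in S and G2, and MCM10 acts later, when the loaded helicase is switched on. E2F transcription factors drive many of these genes at the entry to S phase, and proliferating cells carry more of their RNA than resting cells.

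The 12 groups had 1 column of signals each, which the authors averaged over 2 arrays (3 arrays in PANC1 given ICG-001 for 12 h). Since single arrays were not used, no spread between replicates is known, no test was run, and differences are given as sizes only. A comparison took in every gene with a signal over the detection limit in either column, and counted those that were at least 1.5-fold higher or lower. The limit lay at 143.7 to 144.1 in HCT116 and at 135.3 to 138.0 in PANC1, and all 10 licensing genes entered all 18 comparisons. Levels of different genes, which have different probes, and levels of the 2 lines, which appear to have been normalized apart, were not compared. Among epithelial markers of colon, 5 of 10 were above the limit in all 6 HCT116 columns (EPCAM at 6553 to 9562) and VIL1, CDH17, LGALS4 and CEACAM5 were at or under it in all 6. In PANC1, 9 of 10 ductal carcinoma markers were above the limit in all 6 columns, with VIM at 14637 to 18144, and TFF1 was under it. The lists do not separate the lines by detection, since 5 of 10 colon markers, CDX2 among them, were also above the limit in all 6 PANC1 columns, and 8 of 10 ductal markers in all 6 HCT116 columns.

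The promoters of 8 of the 10 genes were in RefSeq's table for GRCh38.p14, which gives 250 bases before to 50 after each start, and MCM4 and MCM5 were not among them. E2F-type letters TTTCCCGC, TTTGGCGC, TTTCGCGC or TTTGCCGC, searched on both strands, stood in the windows of 7 of these 8 genes, all but MCM10, against 3.99% of 27305 genes with a window. GMNN has 2 windows and MCM7 has 3, with the letters in 1 of them each. CCAAT was found in 6 of 8, against 39.7% of all genes, and TTTGAA in 0 of 8, against 18.2%. E2F-type letters were searched with E2F control of many of these genes already known, so their share is not independent of that choice. The stretches around the E2F-type matches are given here, 5′ to 3′ on the gene's own strand. Capitals mark E2F-type letters, and where the letters run on both strands they overlap into a longer capital run.
MCM2, chr3:127598404-127598433, plus strand: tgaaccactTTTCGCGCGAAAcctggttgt
MCM3, chr6:52284873-52284952, minus strand: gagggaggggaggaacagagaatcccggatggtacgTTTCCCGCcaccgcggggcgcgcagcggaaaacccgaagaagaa
MCM6, chr2:135876519-135876598, minus strand: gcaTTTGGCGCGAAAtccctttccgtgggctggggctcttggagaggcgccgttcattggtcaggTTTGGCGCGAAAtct
MCM7, chr7:100101541-100101620, minus strand: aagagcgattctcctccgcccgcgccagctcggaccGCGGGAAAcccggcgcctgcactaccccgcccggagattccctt
CDC6, chr17:40287875-40287904, plus strand: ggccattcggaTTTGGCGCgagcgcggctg
CDT1, chr16:88803718-88803788, plus strand: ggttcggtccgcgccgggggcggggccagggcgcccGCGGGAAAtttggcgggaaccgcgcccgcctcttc
GMNN, chr6:24775297-24775376, plus strand: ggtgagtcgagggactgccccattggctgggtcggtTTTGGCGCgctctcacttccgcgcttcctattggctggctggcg

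In MCM6 the run TTTGGCGCGAAA occurred 2 times, and its first base lay 152 and 90 bases before the start. The letters of CDT1 lay 35 bases before the start and those of GMNN 80 bases before it, while those of MCM2 and CDC6 lay just inside the transcript, at its bases 3 and 8. MCM3 and MCM7 each held a second match, TTTCGCGC, outside the stretch shown, 4 and 9 bases before the start. A match of letters is not evidence that a factor was bound in these cells.

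To determine how the licensing genes differed with culture time in the absence of drug, DMSO at 96 h was set against DMSO at 12 h. In HCT116 the licensing genes were much dimmer at 96 h: 9 of 10 were past 1.5-fold, all lower, whereas 3.14% of the 16533 genes tested passed in either direction. MCM10 went from a signal of 838 to 316 (2.65-fold lower) and MCM2 from 1215 to 468 (2.60-fold lower). MCM4 was 2.37-fold, MCM5 2.29-fold, MCM6 2.18-fold and MCM3 1.96-fold lower. CDT1, the loader that geminin binds, was 1.90-fold lower, GMNN 1.63-fold lower and MCM7 1.61-fold lower. CDC6 went from 163 to a signal under the limit, which makes it at least 1.14-fold lower. The median log2 ratio of the 10 genes was -1.05, beside 0.01 over all genes tested.

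In PANC1 the same interval left the licensing genes within 1.5-fold. None of the 10 passed, against 1.31% of 16505 genes, and the median log2 ratio was -0.19. MCM3 showed the largest difference of the 10, from 3951 to 3000, a log2 ratio of -0.40, and MCM7 the smallest, from 1976 to 1963. The difference between the lines in this time course was not tested. In bulk RNA, fewer cells in the part of the cycle that uses these genes and less of their RNA per cell cannot be told apart.

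**Figure D1:**
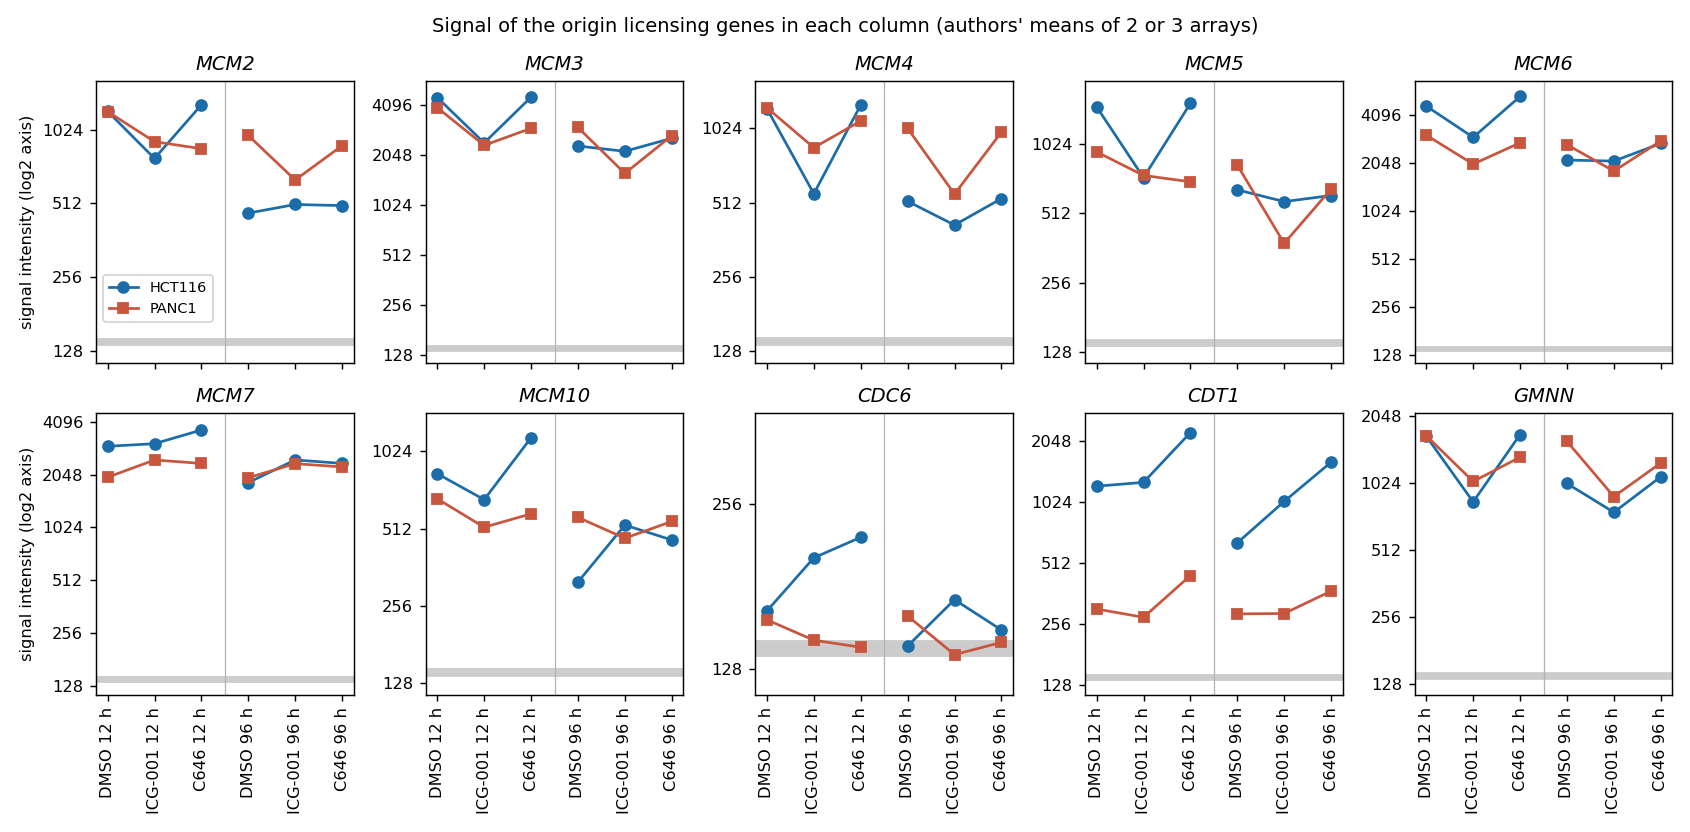
Signal intensity (log2 axis) of each licensing gene in the 6 columns of HCT116 (circles) and of PANC1 (squares), with 12 h columns left and 96 h columns right of the grey line, and the range of detection limits as a grey band. In HCT116 the DMSO point of MCM2 lies at 1215 at 12 h and 468 at 96 h, and CDC6 is the gene whose points lie near the band.

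To determine whether the helicase genes differed with ICG-001, its columns were set against DMSO of the same time and line. MCM2 to MCM6 were lower after 12 h of ICG-001 in HCT116. MCM4 was at 1231 in DMSO and 557 in ICG-001 (2.21-fold lower), and MCM5 at 1483 and 731 (2.03-fold lower). MCM3 was at 4544 and 2423 (1.88-fold lower), while MCM6 was 1.57-fold and MCM2 1.56-fold lower. With GMNN, 6 of 10 licensing genes were past 1.5-fold, all lower, and 9.04% of 16912 genes passed. MCM7, the sixth subunit, was at 2962 in DMSO and 3065 in ICG-001, so that it did not share the lower signal of the other subunits.

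At 96 h in HCT116, where DMSO itself was low, MCM2 to MCM6 in ICG-001 lay close to DMSO. MCM4 was at 519 in DMSO and 416 in ICG-001, a log2 ratio of -0.32, and MCM2 was at 468 and 507, a log2 ratio of 0.12. The genes past 1.5-fold were instead 2 that were higher, MCM10 at 316 in DMSO and 528 in ICG-001 (1.67-fold higher) and CDT1 at 644 and 1031 (1.60-fold higher). These were 2 of 10, against 10.3% of 16937 genes. As a share of the DMSO 12 h signal, MCM2 to MCM6 stood at 45.2% to 64.3% (median 53.3%) after 12 h of ICG-001 and at 33.8% to 47.4% (median 41.7%) after 96 h. The DMSO 96 h column itself stood at 38.5% to 51.1% (median 43.6%).

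In PANC1, MCM2 to MCM6 were lower in ICG-001 than in DMSO at both times, and 4 of these 5 genes had the larger ratio at 96 h. After 12 h, MCM3 was at 3951 in DMSO and 2342 in ICG-001 (1.69-fold lower) and MCM6 at 3071 and 2023 (1.52-fold lower). With GMNN, 3 of 10 were past 1.5-fold, all lower, and 2.53% of 17158 genes passed. After 96 h, MCM5 was at 828 in DMSO and 379 in ICG-001 (2.19-fold lower), MCM3 at 3000 and 1587 (1.89-fold lower), MCM4 at 1025 and 555 (1.85-fold lower) and MCM2 at 969 and 638 (1.52-fold lower). With GMNN, 5 of 10 were past 1.5-fold, all lower, and 7.44% of 17253 genes passed. Against DMSO 12 h, MCM2 to MCM6 stood at 59.3% to 79.0% (median 68.9%) at 12 h and at 40.1% to 59.5% (median 44.7%) at 96 h, while DMSO 96 h was at 75.9% to 87.6% (median 82.5%). MCM7 went the other way, from 1976 in DMSO to 2477 in ICG-001 at 12 h and from 1963 to 2361 at 96 h.

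C646 left MCM2 to MCM6 near DMSO in HCT116. At 12 h they stood at 100.6% to 114.9% of DMSO, and 1 of 10 licensing genes, CDT1, was past 1.5-fold, against 4.17% of 16821 genes. At 96 h CDT1 was again the 1 of 10 past 1.5-fold, against 3.14% of 16727 genes, and MCM6 had the largest log2 ratio of the other helicase subunits apart from MCM7, 0.35. In PANC1 none of the 10 passed after 12 h (6.72% of 17431 genes) or after 96 h (4.02% of 17004 genes). The MCM2 to MCM6 signals were nevertheless lower in each gene at 12 h, with log2 ratios of -0.50 for MCM2, -0.43 for MCM5 and -0.41 for MCM3. At 96 h the ratios were nearer DMSO, at -0.14 for MCM2, -0.16 for MCM3, -0.05 for MCM4 and -0.35 for MCM5. MCM6 was then above DMSO, at 0.08.

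**Figure D2:**
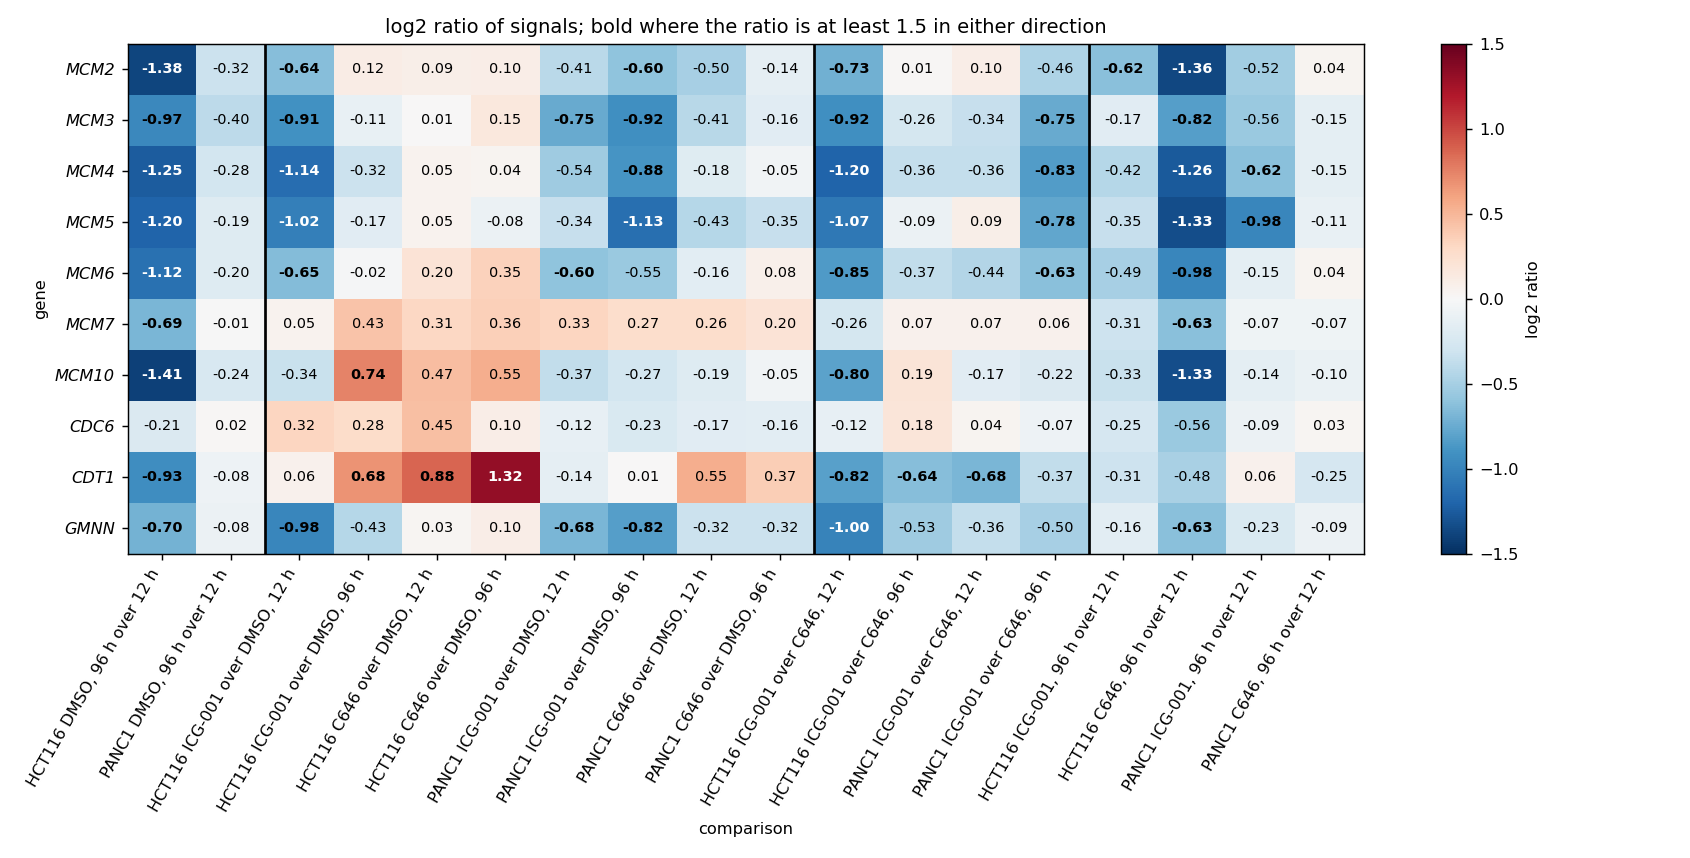
Log2 ratio of signals of each licensing gene (rows) in the 18 comparisons (columns), red where higher and blue where lower in the first-named condition, with bold print where the ratio was at least 1.5 in either direction. MCM2 to MCM6 are blue under ICG-001 at 12 h in both lines and at 96 h in PANC1, CDT1 is deepest red in HCT116 with C646 at 96 h (1.32), the CDC6 ratios that use HCT116 DMSO at 96 h rest on a signal under the limit, and MCM7 is red or near 0 in all 8 drug over DMSO columns.

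The 2 drugs were then set against each other at equal dose and time. In HCT116 at 12 h, 8 of 10 licensing genes were past 1.5-fold, all lower in ICG-001, and 6.31% of 16973 genes passed. MCM4 was 2.29-fold, MCM5 2.10-fold, GMNN 2.00-fold, MCM3 1.89-fold, MCM6 1.80-fold, CDT1 1.76-fold, MCM10 1.74-fold and MCM2 1.65-fold lower. At 96 h, 1 of 10 passed, CDT1 at 1.56-fold lower, against 6.56% of 16994 genes. In PANC1 at 12 h, 1 of 10 passed, CDT1 at 1.61-fold lower, against 2.51% of 17613 genes. At 96 h, 4 of 10 passed, all lower in ICG-001 and all helicase subunits: MCM4 1.78-fold, MCM5 1.72-fold, MCM3 1.69-fold and MCM6 1.55-fold, against 6.84% of 17558 genes. These comparisons use the same drug columns as the comparisons with DMSO.

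The 96 h column of each drug was also set against its own 12 h column. In HCT116 with C646, 8 of 10 licensing genes were past 1.5-fold between 12 and 96 h, all lower, beside 7.13% of 16963 genes, and MCM2 went from 1292 to 502. In HCT116 with ICG-001, 1 of 10 passed, MCM2 from 781 to 507, beside 6.89% of 16992 genes. In PANC1 with ICG-001, 2 of 10 passed, MCM5 from 747 to 379 and MCM4 from 856 to 555, both lower at 96 h, beside 3.98% of 17629 genes. With C646 none of 10 passed, beside 0.482% of 17410 genes. The difference between drugs in this time course was not tested.

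MCM7 was set apart from its partners in the helicase, a comparison chosen after its values were seen. In HCT116 its signal was 2962 in DMSO, 3065 in ICG-001 and 3666 in C646 at 12 h, and 1842, 2478 and 2367 at 96 h. In PANC1 it was 1976, 2477 and 2368 at 12 h, and 1963, 2361 and 2261 at 96 h. Both drugs were above their DMSO column each time, by a log2 ratio of 0.05 to 0.43, and none reached 1.5-fold. Of the 13475 genes tested in all 8 comparisons with DMSO, 9.91% were above DMSO in all 8. The gap between MCM7 and the median of MCM2 to MCM6 was 0.26 to 1.15 on the log2 scale in the drug comparisons, and 0.51 in HCT116 and 0.27 in PANC1 between DMSO at 96 and 12 h. The Pearson correlation of MCM7 with the mean of the other MCM2 to MCM7 genes over the 12 columns, each centred within its line, was 0.49, with 0.77 in HCT116 and -0.63 in PANC1. For MCM2 to MCM6 it was 0.93 to 0.97. The columns share lines, treatments and time points, and the values are descriptions.

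Of the loaders, CDT1 had the highest drug over DMSO ratio of the 10 genes. In HCT116 it was at 1225 in DMSO, 1280 in ICG-001 and 2252 in C646 at 12 h, and at 644, 1031 and 1609 at 96 h. It was thus 1.84-fold higher in C646 than in DMSO at 12 h and 2.50-fold higher at 96 h. Its ratio lay at the 98.9th and 99.9th percentile of all genes tested in those comparisons. In PANC1 it was at 304, 277 and 444 at 12 h, and at 287, 289 and 372 at 96 h, so that C646 was the highest column at both times and did not reach 1.5-fold.

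Geminin holds CDT1 back, and the signals of its gene were closer in pattern to the helicase subunits, with a correlation of 0.88 with the MCM2 to MCM7 mean over the 12 columns, beside 0.57 for CDT1. GMNN in HCT116 was at 1659 in DMSO, 842 in ICG-001 and 1689 in C646 at 12 h, and at 1018, 756 and 1092 at 96 h. In PANC1 it was at 1667, 1040 and 1337 at 12 h and at 1574, 889 and 1259 at 96 h. ICG-001 was the lowest column in both lines at both times, 1.97-fold below DMSO in HCT116 at 12 h, and 1.60-fold and 1.77-fold below it in PANC1 at 12 and 96 h. The log2 ratio of CDT1 was above that of GMNN in all 8 comparisons with DMSO, by 0.54 to 1.22 on the log2 scale. Between DMSO at 96 and 12 h the same difference was -0.23 in HCT116 and 0.00 in PANC1. The CDT1 and GMNN pairing was also chosen after the values were seen. The 2 drugs share the DMSO column of each line and time, so the 8 comparisons are not separate. The share of other gene pairs that do the same was not counted.

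**Figure D3:**
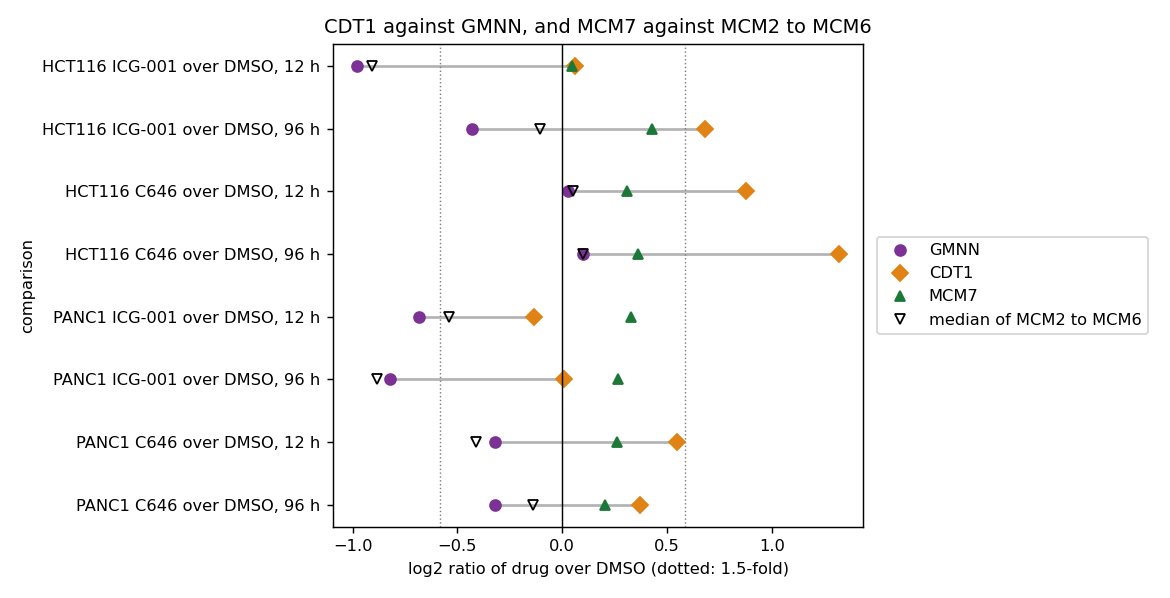
Log2 ratio of drug over DMSO for GMNN (circles), CDT1 (diamonds), MCM7 (triangles) and the median of MCM2 to MCM6 (open triangles) in the 8 comparisons, with dotted lines at 1.5-fold. A grey bar joins GMNN and CDT1, and CDT1 lies to the right of GMNN in every row, with the smallest gap, 0.54, in PANC1 with ICG-001 at 12 h.

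CDC6, which brings CDT1 and the helicase to the origin, was measured close to the detection limit. In HCT116 it was at 163 in DMSO, 204 in ICG-001 and 223 in C646 at 12 h. At 96 h it was under the limit in DMSO, at 171 in ICG-001 and at 151 in C646, so that the drugs lay at least 1.19-fold and at least 1.05-fold above DMSO. In PANC1 it was at 157, 144 and 140 at 12 h, and at 160, 136 and 143 at 96 h. The drug columns were above DMSO in HCT116 and below it in PANC1 each time, and background left in the signal understates such ratios. How many of all genes show this pattern was not counted. After normexp background correction, CDC6 passed 1.5-fold over DMSO in HCT116 at 12 h, with log2 ratios of 0.70 in ICG-001 and 0.92 in C646. In PANC1 it was past 1.5-fold lower after 96 h of ICG-001, at -0.61. That ICG-001 signal, 135.99 before correction, lay just above the limit of 135.96. In HCT116 with ICG-001 at 96 h CDC6 also passed, over a DMSO signal that was under the limit before correction. MCM10 was at 838 in DMSO, 664 in ICG-001 and 1158 in C646 in HCT116 at 12 h, and at 316, 528 and 462 at 96 h. Its 3 columns in PANC1 were 669, 518 and 584 at 12 h, and 566, 469 and 546 at 96 h, a narrower spread.

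The rest of the pathway was described by lists of genes named for their role. Factors that fire licensed origins, such as CDC45 and the GINS subunits, were also dimmer at 96 h in HCT116 DMSO: 7 of 12 were past 1.5-fold, all lower, beside the 3.14% of all genes. GINS2, a subunit of the active helicase, went from 2608 to 821 (3.18-fold lower), the row CDC45L had a log2 ratio of -1.19 and GINS3 of -1.01. Of the genes of the replication fork, 14 of 28 passed, all lower, among them POLA2 of the primase complex at -1.13, POLE2 of the leading-strand polymerase at -1.09 and RFC4 of the clamp loader at -1.01. The origin recognition complex had 2 of 7 lower, the rows ORC1L at -0.68 and ORC3L at -0.59, and its median log2 ratio was -0.16. Limits on relicensing had 4 of 10 lower, with DTL, which targets CDT1 for destruction, at -1.10, nucleotide supply 2 of 6, among them RRM2, a ribonucleotide reductase subunit, at -1.07, and the E2F and pocket protein list 2 of 13, E2F2 at -1.27 and E2F7 at -0.62. Of the other MCM relatives, 1 of 2 was lower, the row C10orf119 (MCMBP) at -0.61. None of the 18 mitotic genes passed, and their median log2 ratio was -0.13. In PANC1 DMSO 1.31% of all genes passed. There, none of these lists except the mitotic genes, with 2 of 18 lower, had a gene past 1.5-fold.

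With ICG-001 at 12 h in HCT116, where 9.04% of all genes passed, most list members past 1.5-fold were lower. Firing factors had 3 of 12 lower, GINS2 at -1.08, the row C15orf42 (TICRR) at -0.82 and CDC45L at -0.67, and the fork had 6 of 28 lower, with POLD1 at -1.30 and the DNA ligase gene LIG1 at -0.86. TYMS and TK1, which supply thymidine nucleotides, were at -1.13 and -0.90. Among limits on relicensing, 3 of 10 were lower, with SKP2, which marks CDT1 for destruction, at -0.96, CDK2 at -0.74 and DTL at -0.67. ORC1L, at -0.86, was the 1 of 7 past 1.5-fold in the origin recognition complex. Mitotic genes had 4 of 18 lower, with TTK at -0.89, NUSAP1 at -0.71 and TOP2A at -0.70, and 1 higher, CDC20 at 0.61, which is named outside the rule after its value was seen. In the E2F and pocket protein list, E2F4 was higher at 0.62 and RBL2 lower at -0.60, of 13. At 96 h in HCT116, where 10.3% of all genes passed, 10 of 18 mitotic genes were past 1.5-fold lower (median -0.70), while none of the licensing genes was (median 0.05). In PANC1 at 96 h, 10 of 18 mitotic and 5 of 10 licensing genes were past 1.5-fold, all lower in ICG-001, with medians of -0.67 and -0.58, beside 7.44% of all genes. Nucleotide supply had 2 of 6 lower, TK1 at -1.03 and RRM2 at -0.91 (median -0.42), and limits on relicensing 1 of 11, CCNA2 at -0.78. The fork had 2 of 28 lower (LIG1 at -0.62 and POLD1 at -0.70), firing factors 1 of 11 (GINS2 at -0.65) and the other MCM relatives 1 of 2 (C10orf119 at -0.63), while the origin recognition complex and the E2F list had none. In the same comparison 3 of 9 ductal carcinoma markers were lower and 1 higher (median -0.49), and 2 of 7 colon markers were lower (median -0.49), lists that share genes, and their part in the result was not tested. With C646 over DMSO, where 3.14% to 6.72% of all genes passed, no list other than the mitotic genes had more than 1 gene past 1.5-fold. The mitotic list had 2 of 18 higher and 2 lower in PANC1 at 12 h, beside 6.72% of all genes.

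**Figure D4:**
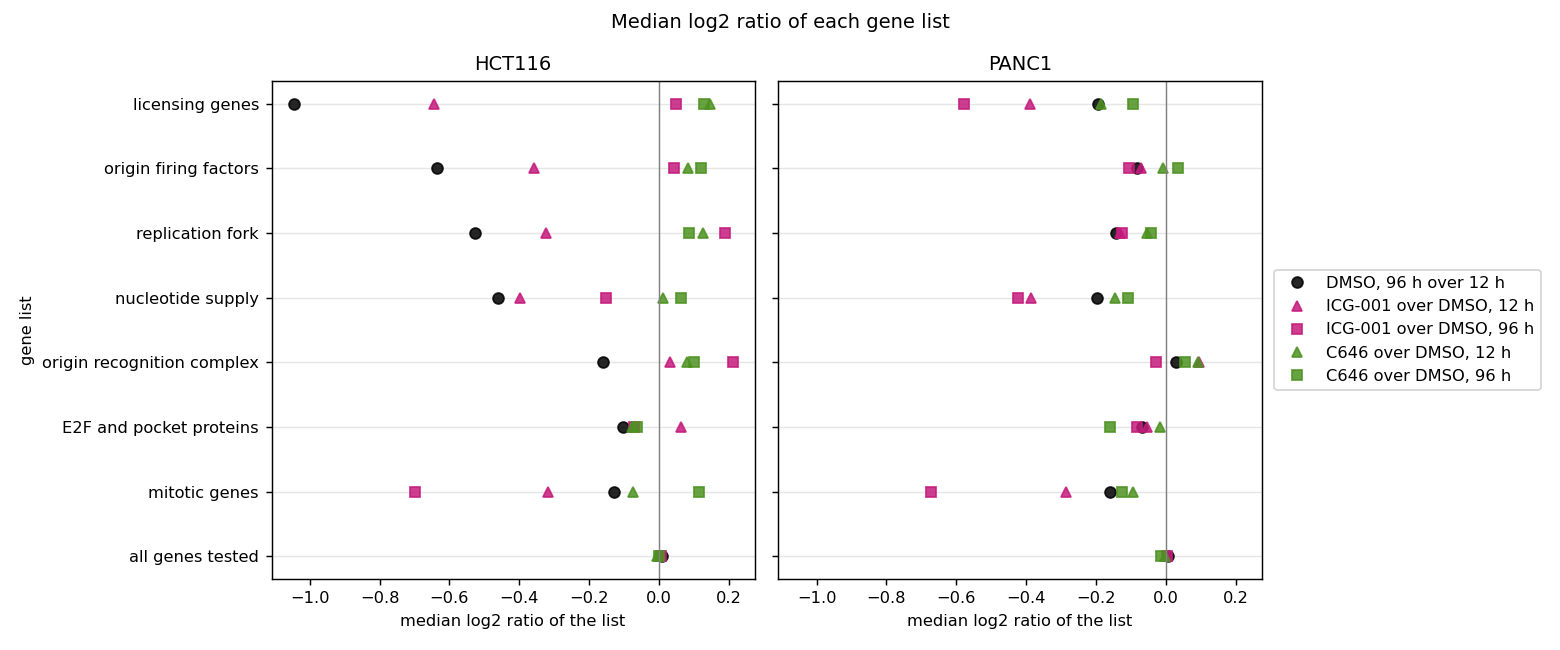
Median log2 ratio of the licensing genes and 6 lists of other genes, with all genes tested at the bottom, in HCT116 (left) and PANC1 (right), for DMSO at 96 over 12 h (black circles) and for ICG-001 (magenta) and C646 (green) over DMSO at 12 h (triangles) and 96 h (squares). The licensing genes have the lowest median in DMSO over time in HCT116 (-1.05), and the mitotic genes the lowest after 96 h of ICG-001 (-0.70).

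The genes most like the helicase group were looked for among 2366 other genes that were above the limit in all 12 columns and spanned at least 1.5-fold in each line. The 5 with the highest Pearson correlation with the MCM2 to MCM7 mean, over 12 columns centred within each line, were GINS2 (0.99), HELLS, a chromatin remodeller (0.98), DSN1, a kinetochore gene (0.96), UHRF1, which reads newly copied DNA methylation (0.96), and UNG, which removes uracil from DNA (0.96). In all, 23 genes had a correlation above 0.9. The correlations are descriptions over columns that share cultures and controls.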

How the data were processed

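The deposited values are intensity, not log-transformed, with a single row for each gene symbol. GenomeStudio was used by the authors, per the study's methods, to quantile normalize the arrays, background was not subtracted, and replicates were averaged. The sample labels give 2 arrays for 11 columns and 3 for 1, whereas the methods give 2 replicates for every treatment and time. Left-in background makes ratios of dim genes too small. Values of single arrays were not used, so no spread or p-value is given, and the number of arrays limits the precision. Groups came from the labels.

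Ratios between columns of 1 line were taken on the log2 scale. The detection limit was the peak of a column's log2 distribution plus 2.33 SD of the values below it. Where 1 column was under the limit, a fold is the brighter signal over the limit and is a lower bound. Members were matched by current symbol, and list genes by current or else older symbol. The licensing genes and the lists were chosen with earlier results of these data known. All 10 licensing genes are named, and in other lists up to 3 genes past 1.5-fold in HCT116 DMSO over time, HCT116 ICG-001 at 12 h and PANC1 ICG-001 at 96 h. A gene that this rule named is not reported here.

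Tools were R 4.3.3 with limma 3.58.1, for normexp only, and Python 3.11.15 with scipy 1.17.1, pandas 2.3.3, numpy 2.4.6 and matplotlib 3.10.9. The procedure was run on simulated columns with planted 2-fold changes and noise taken from dim genes. That setting does not show how replicate noise of brighter genes affects the counts. Alternatives were no filter, a limit at 5 SD, normexp correction, centring, quantile normalization over 12 columns, and thresholds of 1.2 and 2.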

Additional observations from a re-analysis of the deposited data

Results flagged for a closer look

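CDC6 was above DMSO in the 4 drug columns of HCT116 and below DMSO in the 4 of PANC1. In HCT116 the DMSO signal at 96 h was under the detection limit, so the ratios at 96 h were taken over the limit and are lower bounds. The log2 ratios then ran from 0.07 to 0.45 in HCT116 (mean at least 0.27) and from -0.23 to -0.12 in PANC1 (mean -0.17). The means differ by at least 0.44, and the difference was not tested. All of these signals lie near the limit.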

How the results depend on the processing

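No paired analysis was possible because replicate arrays were averaged into 1 column per group, and for the same reason no replicate could be left out. Without the filter, with a 5 SD limit and with centring, the licensing genes past 1.5-fold stayed the same in every comparison. Quantile normalization over 12 columns added CDC6 in HCT116 C646 at 96 over 12 h, at -0.60. For normexp and the 1.2-fold threshold, counts that changed by 1.5-fold or less are not listed below. Normexp correction added 10 gene and comparison pairs and lost 0, and the number of genes past 1.5-fold became 2 in HCT116 C646 over DMSO at 12 h and at 96 h, 1 in PANC1 C646 over DMSO at 12 h and 2 in HCT116 ICG-001 over C646 at 96 h. Its medians moved to 0.21 (HCT116 C646 over DMSO at 96 h), -0.47 (PANC1 ICG-001 at 12 h), -0.30 (PANC1 C646 at 12 h), -1.11 (HCT116 C646 over time) and -0.26 (PANC1 ICG-001 over time). The 5 SD limit moved the median in 2 comparisons, each with 9 genes kept, to -1.12 (HCT116 DMSO over time) and -0.34 (PANC1 ICG-001 over C646 at 12 h). The number of genes it kept in the other comparisons is not listed. MCM3 in HCT116 C646 at 12 h was the 1 sign change, from 0.01 to -0.04 with normexp and -0.03 with quantile normalization over 12 columns. A 1.2-fold threshold gave 3 genes in PANC1 DMSO over time, 6 in HCT116 ICG-001 at 96 h, 4 in HCT116 C646 at 12 h and at 96 h, 8 at each time in PANC1 ICG-001, 5 and 3 in PANC1 C646 at 12 and 96 h, 4 in HCT116 ICG-001 over C646 at 96 h, 5 and 7 in PANC1 ICG-001 over C646 at 12 and 96 h, 7 in HCT116 ICG-001 over time and 4 in PANC1 ICG-001 over time. A 2-fold threshold gave 5 in HCT116 DMSO over time, 2 in HCT116 ICG-001 at 12 h, 1 in PANC1 ICG-001 at 96 h, 3 in HCT116 ICG-001 over C646 at 12 h, 4 in HCT116 C646 over time, 1 in HCT116 C646 over DMSO at 96 h (CDT1) and 0 in the other comparisons.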

Other observations

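MCM8, a relative of the licensing helicase that acts in recombination and does not take part in licensing, was named here after its values were seen. In HCT116 it was at 1719 in DMSO, 2309 in ICG-001 and 3297 in C646 at 12 h, and at 2098, 3283 and 2990 at 96 h. In PANC1 it was at 1967, 2958 and 4279 at 12 h, and at 2199, 3179 and 5006 at 96 h. Both drugs were above DMSO in all 8 comparisons, with the highest ratio in PANC1 with C646, 2.18-fold at 12 h and 2.28-fold at 96 h. Of the 13475 genes tested in all 8 comparisons, 9.91% were above DMSO in all 8. MCM7 was also above DMSO in all 8, and MCM2 to MCM6 were not.

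MIR25, a microRNA gene within an intron of MCM7, was above the limit in 3 of 6 columns of HCT116 (signals of 127 to 162) and in 6 of 6 of PANC1 (136 to 163). The rows of the neighbouring MIR93 and MIR106B were under the limit in all columns.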
